A study of Mus musculus with 4 samples.

Results

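The genes described here are 9 keratins of the mouse epidermis and hair follicle: Krt5, Krt14 and Krt15 of the basal layer, Krt1, Krt10, Krt2 and Krt77 of the suprabasal layers, and Krt17 and Krt79 of the follicle. They are 9 of 21900 protein-coding genes, set by a list of names that uses no measured value but was drawn up with earlier results of these data known, and every site assigned to one of them was taken from each of 2 deposited site lists, called list 1 and list 2. The study mapped m6A, the N6-methylated form of adenosine in messenger RNA, with MeRIP-seq, in which RNA fragments bound by an m6A antibody (IP) are sequenced beside unselected fragments (input). The groups are control m6A IP and control input, with 2 libraries each, from epidermal keratinocytes at postnatal day 0. Every library carried K14Cre, which drives Cre recombinase from the keratin 14 promoter in basal keratinocytes, together with the Mettl14 genotype F/+, and no treatment was given. A list gives called sites only, and the labels tie neither list to a library, so there is no depth, no level of any transcript and no spread between replicates behind a value.

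Keratins are the intermediate filament proteins of epithelia, and their filaments are built from pairs of a type I and a type II keratin. Basal keratinocytes assemble KRT5 with KRT14, and cells that leave the basal layer switch to KRT1 with KRT10, with KRT2 added in the upper layers. Apart from Krt18, mouse type I genes lie in one cluster on chromosome 11 and type II genes in one cluster on chromosome 15. In mammalian messenger RNA, m6A is known to be frequent near the stop codon and in the 3′ untranslated region.

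Krt5 and Krt77 had a site, 1 each, and both sites were in list 1. No site was listed in list 2 for any of the 9 genes. Krt14, Krt15, Krt1, Krt10, Krt2, Krt17 and Krt79 had no site in either list. Thus 2 of 9 keratins (22.2%) had a site in list 1, against 18.3% of all protein-coding genes, and 0 of 9 had one in list 2, against 22.1% of all protein-coding genes. A site in both lists was found for 0 of 9, against 11.5% of protein-coding genes. The keratin genes are short, spanning 4191 to 12196 bases of the genome, and among the 4607 protein-coding genes with a span in this range the shares were 11.4% in list 1, 13.1% in list 2 and 5.51% in both. The count in list 1 is near the background, and no test was made of the count of 0 in list 2. Neither keratin site of list 1 overlapped a site of list 2. This follows from the absence of list 2 sites in the 9 genes and is not a separate result. Over the whole lists, 36.7% of the sites in list 1 overlapped one in list 2, and 26.8% in the reverse count. The lists say nothing of why a site is missing. In bulk RNA of keratinocytes, fewer cells with a transcript and less RNA per cell cannot be told apart. Without expression values, neither can be told apart from a transcript that is present and lacks the mark.

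**Figure D1:**
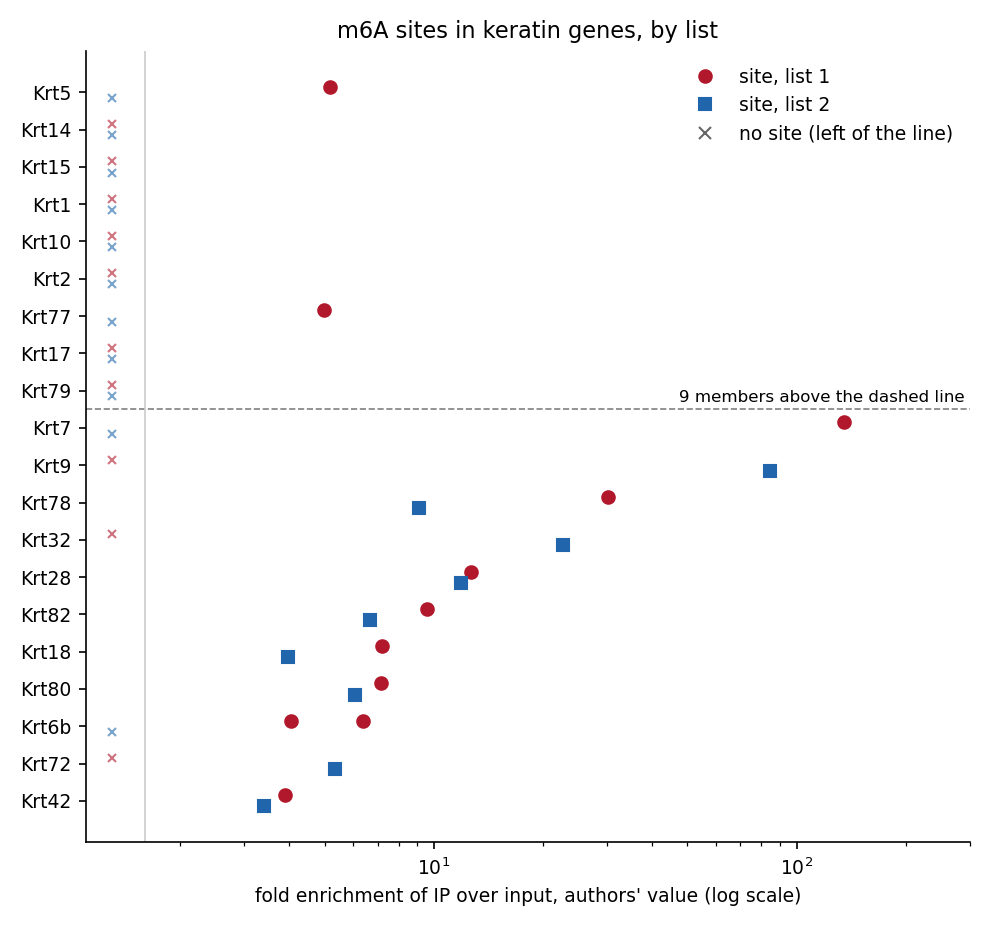
Fold enrichment of every listed site in keratin genes (horizontal axis, log scale), with the 9 chosen keratins above the dashed line and the 11 other keratins with a site below it. Circles are sites of list 1, squares are sites of list 2, and crosses mark genes without a site in that list. Among the 9 keratins, Krt5 (5.18) and Krt77 (4.98) in list 1 are the 2 sites, and no square appears.

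Krt5, the type II keratin of basal keratinocytes, carried a site at chromosome 15, 101711529 to 101711743 (GRCm38, counted from 1), 215 bases long and assigned to transcript NM_027011. Its fold enrichment, the authors' ratio of IP over input, was 5.18. Its -10 log10 p was 3100 and its false discovery rate (FDR) 55.81%, where the lowest FDR in list 1 was 55.67%. The fold was in the lower part of list 1, since 31.5% of the 6038 sites had a lower one and the median was 11.58. The significance was higher in rank, with 76.4% of the sites at a lower -10 log10 p, 1393 sites tied at 3100 and 33 sites above it, up to 3233.06. A value shared by so many sites may be one assigned to very small p, which the sources used here do not state. Values above 3100 did not all come with a lower FDR, since the Krt7 site at 3156.89 had 86%. The order among sites at 3100 or more is therefore not read as an order of significance. Among the 1426 sites of list 1 with a -10 log10 p of 3100 or more, the median fold was 114 and the site in Krt5 had the lowest fold of all. The next lowest folds among these sites were 5.53 in Hmgn1, a nucleosome-binding protein gene, 6.46 in Calm4, a calmodulin-like gene of keratinocytes, and 7.15 in Krt80. The sites with a fold of 5.18 or less numbered 1905 and had a median -10 log10 p of 20.33. In list 2 the lowest fold among the 1648 sites with a -10 log10 p of 3100 or more was 7.91, in P4hb. Ranked by fold, Krt5 stood at 2987 of the 4187 genes of list 1, and ranked by -10 log10 p it shared place 34. That place depends on counting the values above 3100 as more significant.

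Krt77, a type II keratin related to Krt1, carried a site at chromosome 15, 101859159 to 101859518, 360 bases long and assigned to an Ensembl transcript. The fold was 4.98, the -10 log10 p 430.78 and the FDR 100%, a value shared by 59.2% of the sites of list 1. Its length exceeded that of 84.3% of the sites of list 1, while 30.9% had a lower fold and 51.1% a lower -10 log10 p. Of the 2951 sites at least as significant, 43 had a fold of 4.98 or less (1.46%). The Krt77 and Krt5 sites thus had close folds and differed in significance and FDR. Restricted to sites with an FDR below 100%, or to sites with a fold of 5 or more, list 1 retained 1 of the 9 keratins, Krt5. The share of all protein-coding genes was not computed under these restrictions. Whether 1 of 9 is few or many therefore cannot be read.

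**Figure D2:**
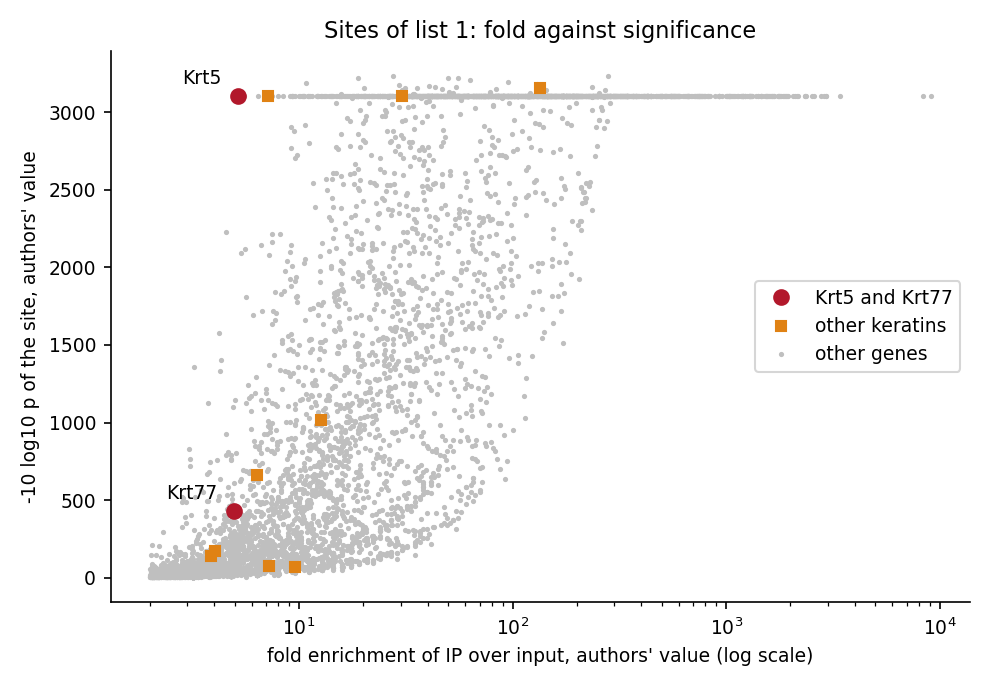
All 6038 sites of list 1 by fold enrichment (horizontal axis, log scale) and -10 log10 p (vertical axis), both the authors' values. The large circles are Krt5 and Krt77, the squares the other keratins and the small points all other genes. Krt5 (fold 5.18) is the leftmost point of the row of sites at 3100, and Krt77 (4.98) lies at 430.78.

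The 2 sites lay in different parts of their genes. Both genes are on the minus strand in the RefSeq table. The Krt5 site began 1162 bases inward of the 5′ end of the gene, and its middle lay at 21.7% of the genomic span (5837 bases) counted from that end. The Krt77 site ended 428 bases short of the 3′ end, with its middle at 94.5% of the span of 10976 bases. The comparison used the 4524 sites of list 1 with a known strand that lay wholly within the span of their gene. Of these, 25.2% lay beyond 90% of the span and 11.7% between 20% and 40% of it. In genes with spans like those of the 9 keratins these shares were 19% and 13.1%. The span includes introns, so these places are not places in the mature RNA. Exon, coding and UTR annotation and the sequence of the sites were not used here.

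**Figure D3:**
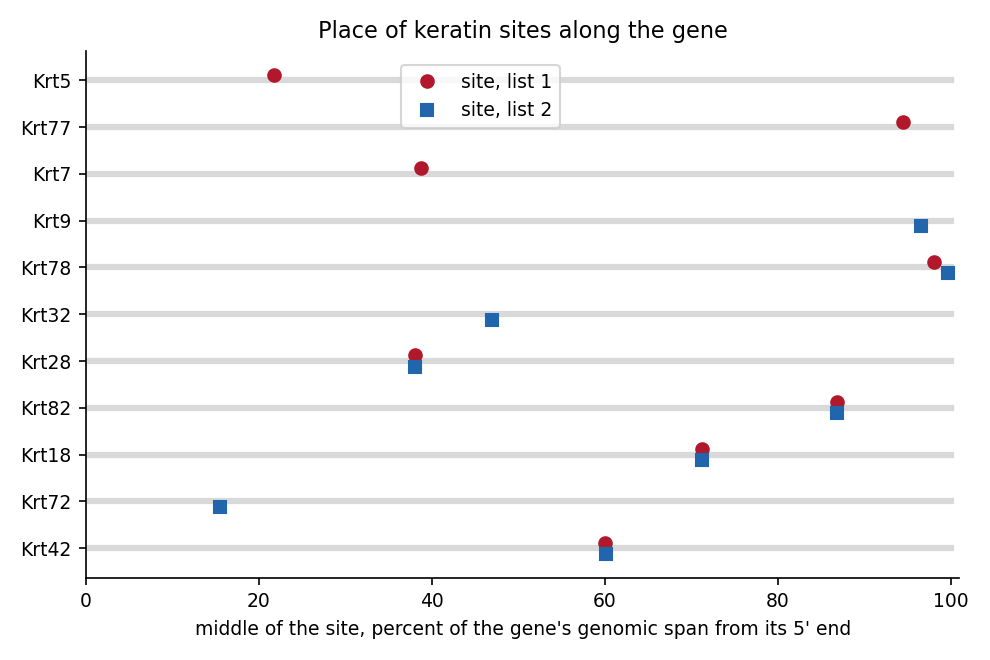
Middle of each keratin site as a percent of the genomic span of its gene from the 5′ end (horizontal axis), for the genes with a strand in the RefSeq promoter table. Circles are sites of list 1 and squares of list 2, with Krt5 and Krt77 in the top rows. Krt5 is at 21.7%, Krt77 at 94.5%, Krt9 at 96.6%, and Krt78 at 98.1% in list 1 and 99.7% in list 2.

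By filament type, both sites fell in type II genes. Of the 5 type II keratins among the 9, 2 had a site in list 1, and of the 4 type I keratins (Krt14, Krt15, Krt10 and Krt17) 0 had one in either list. Among the other keratins the shares with a site in list 1 and list 2 were 25% and 20% for type II and 12.5% and 20.8% for type I. Of all protein-coding genes, 18.3% and 22.1% had one. Counts of 2 of 5 and 0 of 4 are too small to show a difference between the types or its absence, and none was tested. In neither filament pair did both partners have a site. Krt5 had one and its partner Krt14 did not, and Krt1 and Krt10 both had none. Most protein-coding genes lack a site in either list, so 2 pairs without a joint site show nothing about filament partners.

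The peak numbers in the lists give a further measurement for the genes without a site. Each site carries the number of its peak, and the numbers followed genome order without exception, with 0 of 6017 neighbouring pairs of list 1 and 0 of 8225 of list 2 out of order. The highest numbers were 41306 and 52650, so 14.6% and 15.7% of the numbers were listed. A missing number is taken here as a peak called and not listed, and the order places it between its listed neighbours, but how the numbers were given and why most are missing is not stated in the sources used here. In list 2 the sites in Krt82, Krt72 and Krt78 carried the consecutive numbers 18809, 18810 and 18811. Krt5 lies between the Krt82 and Krt72 sites, which were 242346 bases apart, and Krt2, Krt1, Krt77 and Krt79 lie between the Krt72 and Krt78 sites, 160988 bases apart. No peak number was thus missing from list 2 in the intervals that hold these 5 type II keratins. The Krt82 to Krt72 interval holds 6 keratins, Krt5 included, and the Krt72 to Krt78 interval holds 7, including the 4 just named. The absence of a missing number therefore applies equally to the other keratins in these intervals and is not particular to the 5. Among 16536 protein-coding genes without a site in list 2, 2.55% lay between listed sites with no missing number, and 4.32% did among genes of similar span. The 5 genes share 2 intervals and are not separate observations. Of 2993 neighbouring pairs with consecutive numbers in list 2, 4 were at least as far apart as the Krt82 and Krt72 sites and 15 at least as far as the Krt72 and Krt78 sites, and the median distance was 5187 bases.

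List 1 differed over the same stretch. Its Krt6b, Krt5 and Krt77 sites carried the numbers 14701, 14702 and 14704, so 1 number was missing in the 147415 bases between the Krt5 and Krt77 sites, where Krt2 and Krt1 lie with 3 other keratins. Between the Krt77 and Krt78 sites 3 numbers were missing, in an interval that holds Krt79. In list 1 none of the 7 keratins without a site lay in an interval free of missing numbers. The share was 3.16% among 17493 protein-coding genes without a site in list 1, and 4.67% among those of similar span. With shares this low, finding none among 7 genes is near the background, and no test was made. The 7 keratins also share intervals and are not separate observations, since Krt10, Krt15, Krt14 and Krt17 all lie in the same interval.

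The type I keratins were in intervals with missing numbers in both lists. In list 1, Krt10, Krt15, Krt14 and Krt17 all lie between the sites in Krt28 (number 7004) and Krt42 (number 7011), an interval of 894420 bases with 58 protein-coding genes and 6 missing numbers. In list 2 the sites in Krt32 and Krt9 divide it, leaving 7 missing numbers around Krt10, 2 around Krt15 and 3 around Krt14 and Krt17. Whether any missing number stands for a peak in a keratin gene cannot be read from the lists.

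**Figure D4:**
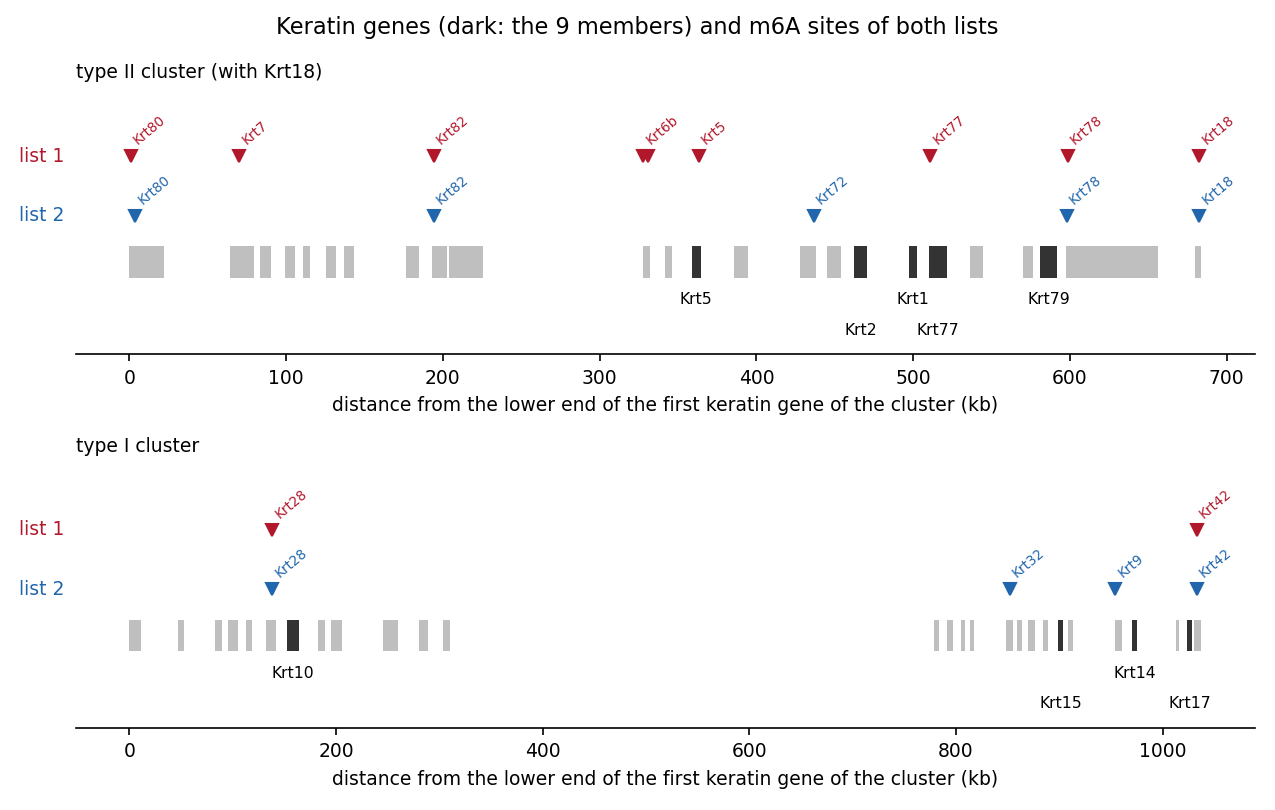
Keratin genes of the chromosome 15 cluster (upper panel) and the chromosome 11 cluster (lower panel) as boxes along the distance in kb from the lower end of the first keratin gene, with the 9 chosen keratins dark and named below. Triangles are sites of list 1 and list 2, named by gene. List 1 has sites over Krt5 and Krt77, and list 2 has none between Krt82 and Krt72 or between Krt72 and Krt78.

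The sites nearest to the genes without one were mostly in other keratins. Krt17, a keratin of follicles and other skin appendages, lay 4570 bases from the Krt42 site in each list. Krt79, expressed in the canal of the hair follicle, lay 6217 bases from the Krt78 site of list 1 and 5688 bases from that of list 2. Krt10 lay 14074 and 14071 bases from the Krt28 site of list 1 and list 2. Krt1 was 8372 bases from the Krt77 site of list 1 and 60401 bases from the Krt72 site of list 2, and Krt2 was 40202 and 25664 bases from the same sites. Krt14 was 58089 bases from the Krt42 site in list 1 and 16056 bases from the Krt9 site in list 2. Krt15, a basal keratin also known from follicle stem cells, was farthest in list 1, 129650 bases from the Krt42 site, and in list 2 it was 46916 bases from the Krt32 site. Apart from the Krt5 and Krt77 sites in their own genes, no site of either list reached into a gene of the 9, since counting sites by overlap with the annotated gene gave the same 2 genes in list 1 and 0 in list 2.

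The other keratin genes served as comparison. Of 44 protein-coding keratin genes outside the 9, 8 had a site in list 1 (18.2%), 9 in list 2 (20.5%) and 6 in both (13.6%), beside 18.3%, 22.1% and 11.5% of all protein-coding genes. They were above the 11.4%, 13.1% and 5.51% of protein-coding genes with a span in the range of the 9 keratins, a range that holds 36 of the 44, and this difference was not tested. For the 9 keratins the same counts were 2, 0 and 0. Because the 9 genes were chosen with results of these lists known, the difference between the 9 and the other keratins was not tested.

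The 6 other keratins with a site in both lists were Krt18, Krt28, Krt42, Krt78, Krt80 and Krt82. Krt28, a keratin of the inner root sheath, had a fold of 12.67 in list 1 and 11.89 in list 2 at a site that shared 69 bases. Krt42 had 3.88 and 3.41 at a site that shared 210 bases. Krt82, a hair cuticle keratin, had 9.56 and 6.68, and Krt18, the type I keratin of simple epithelia, had 7.22 and 3.97, each at the same interval in both lists. The FDR at these 4 sites was 94% for Krt28 in list 1 and 100% otherwise. All 4 pairs shared at least 1 edge, as did 73.7% of the 2224 overlapping pairs of the whole lists. Krt78, a type II keratin, had 30.26 in list 1 and 9.13 in list 2, at sites 224 bases apart near the 3′ end of the gene. Krt80, a type II keratin, had 7.15 and 6.07 at sites 2701 bases apart.

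The 5 keratins with a site in a single list included the highest folds of the family. Krt7, a type II keratin of simple epithelia, had 134.96 in list 1 with an FDR of 86%. Krt9, the type I keratin of palms and soles, had 84.52 in list 2 with an FDR of 59.47%, and Krt32, a hair keratin, had 22.66 with 85.37%. Krt72 of the inner root sheath had 5.34 in list 2 with an FDR of 100%. Krt6b, a type II keratin of follicles and stressed epidermis, had 2 sites in list 1, with folds of 6.39 and 4.05 and an FDR of 100%. Within list 1, the folds of the Krt5 and Krt77 sites were below that of the strongest site of every other keratin with a site there except Krt42. Keratins are close copies of each other, above all Krt6a and Krt6b, and how reads that match several genes were counted is not stated in the sources used here, so the assignment of a site to one keratin is uncertain.

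Intermediate filament genes outside the keratin family had sites in 5 of 16 genes in list 1 (31.2%), 7 in list 2 (43.8%) and 4 in both (25%). All protein-coding genes were at 18.3%, 22.1% and 11.5%. That background is not matched to the spans of these genes, and the difference was not tested. Lmna, which encodes lamins of the nuclear envelope, had an overlapping site with folds of 3.33 and 3.57. The others in both lists were the filament genes of glia and neurons Gfap, Nefm and Prph, all at an FDR of 100%. The highest Gfap folds, 9.56 in list 1 and 5.34 in list 2, were at overlapping sites with a -10 log10 p of 60.67 and 17.34. The highest Nefm folds, 7.97 and 9.35, were at different sites, with a -10 log10 p of 34.85 and 37.75. The list 1 site that overlapped the latter had a fold of 6.38. The Prph sites (3.19 and 2.67) did not overlap and had a -10 log10 p of 14.12 and 7.2. Lmnb1 (39.67) and Lmnb2 (20.12), which encode the B-type lamins, had sites in list 2 alone, each with a highest -10 log10 p of 3100. Nefl (2.67) had a site in list 2 alone and Nes (2.98) in list 1 alone, both at an FDR of 100%. Their -10 log10 p was 11.85 and 8.37, short of the 50 that stands for a p of 1e-05. The Nefm and Prph sites of both lists and the Gfap sites of list 2 were short of it too. The counts of filament genes given first include all these weak sites.

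**Figure D5:**
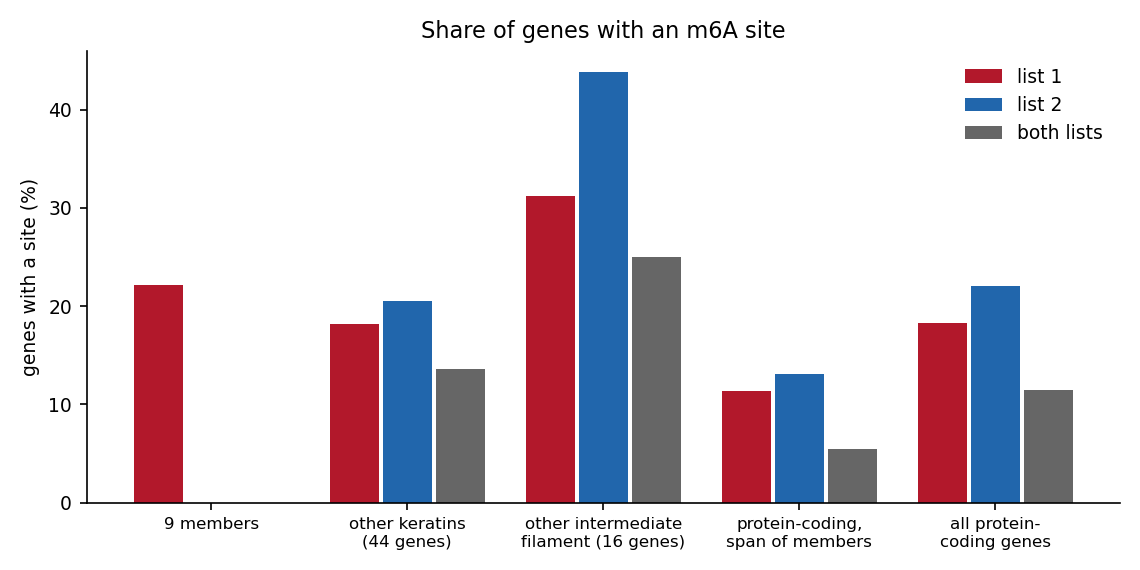
Percent of genes with a site in list 1, list 2 and both lists (vertical axis) for the 9 keratins, the other keratins, the other intermediate filament genes, the protein-coding genes with a span in the range of the 9 keratins, and all protein-coding genes. For the 9 keratins the bar for list 1 stands at 22.2% and those for list 2 and both lists are at 0, while all protein-coding genes are at 18.3%, 22.1% and 11.5%.

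The lists hold no expression values, so the labelled cell type could not be checked. Which marker genes had a site is given as a description only, since a site does not measure cell identity. Of 7 basal keratinocyte markers 5 had a site in list 1 and 4 in list 2, of 8 suprabasal markers 2 and 2, and of 6 follicle markers 2 and 1, where 18.3% and 22.1% of all protein-coding genes had one. Markers of other cell types had sites too, in 1 and 1 of 3 for simple epithelium and Merkel cells, 4 and 2 of 5 for fibroblasts, 2 and 2 of 5 for melanocytes, 2 and 3 of 4 for endothelium and 2 and 0 of 4 for immune cells. The marker lists include the 9 keratins, so Krt5 is among the basal and Krt77 among the suprabasal counts of list 1. The background of all protein-coding genes is not matched to the spans of the markers, and no difference was tested.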

How the data were processed

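MeRIP-seq was made from 4 libraries, IP and input with replicate numbers 1 and 2. The deposited lists hold, per the file headers, the authors' fold enrichment (a ratio), a score that equals -10 log10 of the p-value in every line, and the FDR in percent. Site names begin with MACS, a peak caller, per the deposited lists. The submitters' processing notes name GRCm38 as the build. Aligner, filters and any pooling of libraries are not stated in the sources used here. The depth per sample is unknown, so single values carry no interval.

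Site positions, lengths and peak numbers were read from the lists, and 1 was added to each deposited start. Genes were matched to RefSeq (GRCm38.p6) by identifier, then symbol. Strand came from the RefSeq promoter table, which held 6 of the 9 keratins. Overlap meant at least 1 shared base. No test was run, since the lists hold no values per library. The computation was tested on simulated lists. Members, gene lists and alternatives were chosen with earlier results of these data known. Named genes were the 9 keratins, every other keratin or intermediate filament gene with a site in both lists, and the 5 others of each kind with the highest fold (4 existed outside the keratins). Genes compared with the Krt5 site by fold were named after their values were seen. The background by gene span and the peak numbers were added after seeing the data. Alternatives were a p of at most 1e-05, an FDR below 100% or a fold of 5 or more for each site, overlap with the annotated gene, a reciprocal overlap of 50%, merged sites, ranks by -10 log10 p and each list alone. Sequence motifs and exons were not analysed here. Python 3.11.15, pandas 2.3.3, numpy 2.4.6 and matplotlib 3.10.9 were used.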

Additional observations from a re-analysis of the deposited data

How the results depend on the processing

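Of the 9 keratins, 2 had a site in list 1, and the count was 1 with sites at an FDR below 100% and 1 with a fold of 5 or more, because the Krt77 site was at 100% and 4.98. It was 2 with a p of 1e-05 or less and by overlap with the annotated gene. The share of all protein-coding genes with a site was not computed under any of these settings, so the altered counts have no background. A site in either list was found for 2 keratins, and for 0 with list 2 alone. The counts of 0 in list 2, in both lists and of overlapping sites can only stay at 0 under stricter settings, and they did so with overlap with the annotated gene and with merged sites too. Ranked by -10 log10 p in place of fold, Krt5 moved to 34 and Krt77 to 2156 of 4187 genes, against 2987 and 3010. Place 34 is the top of a large tie, since 1393 sites of list 1 had the same -10 log10 p of 3100. It also counts values above 3100 as more significant, which the FDR did not always follow. Of the other keratins, 8, 6 and 4 had a site in list 1, list 2 and both lists with a p of 1e-05 or less, against 8, 9 and 6. No paired analysis was possible because the lists are not tied to replicate numbers and no result comes from a test. For the same reason no replicate could be left out.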

Other observations

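Beside keratins, a few genes that the deposited annotation places at keratin filaments had sites. They are the genes outside the keratin family that carry this annotation term in either list, and the term was chosen after the lists were seen. Fam83h, known for a role in keratin organisation, had an overlapping site on chromosome 15 from 76001092, with a fold of 19.94 in list 1 and 3.88 in list 2. The FDR there was 55.81% and 100%. A second Fam83h site in list 2 had a fold of 2.88, an FDR of 100% and a -10 log10 p of 37.42. Casp14, the caspase of the cornified layer, had a site in each list that did not overlap. The folds were 2.26 in list 1, at an FDR of 100%, and 4.81 in list 2, at 81.25%. Krtap12-1, a keratin-associated protein gene of hair, had a fold of 765.09 in list 1 and no site in list 2. The site with the preceding peak number, in the neighbouring gene Gm10024, had the same fold and the same -10 log10 p of 3100, so the value is not particular to Krtap12-1. Tchp, which encodes trichoplein, a keratin-binding protein, had 4.01 in list 2 and no site in list 1, and so had Csnk1a1, a casein kinase gene, with 6.26. The term was given to 9 genes with a site in each list, of which 6 and 5 were keratins counted by symbol, among them Krt5 and Krt77 in list 1.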
